A study of Mus musculus with 18 samples.

Results

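The comparison described here is that of cultured mouse cortical neurons after 6 h of raised potassium chloride (KCl) with untreated neurons at 0 h, as measured by array set B. Set B is one of 2 Affymetrix array types used in the study, and it carries many probe sets for less well described transcripts. A probe set is a group of short oligonucleotides that together measure 1 transcript. The 6 arrays were chosen by their labels from the 18 of the series: the 3 of set B at 6 h, set against the 3 of set B at 0 h. All 22511 probe sets of set B other than the manufacturer's control probe sets were taken, of 45137 on both array types. The cells were cortical neurons of postnatal day 0 mice per the labels, which also call them embryonic, after 7 days in vitro. The 6 h cultures received KCl at 55 mM per the sample labels, or 50 mM per the series text, and the 0 h cultures were untreated. The series text counts 3 independent experiments, so n = 3 per time. No untreated cultures kept to 6 h are named, so handling and time in culture cannot be told apart from KCl.

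High extracellular potassium depolarizes the neuronal membrane and opens voltage-gated calcium channels, among them the L-type channels the study set out to engage. Calcium entry activates kinases that phosphorylate the transcription factor CREB, and a first wave of genes, many of them encoding transcription factors, is transcribed without new protein synthesis. A later wave follows within hours and encodes secreted peptides, synaptic scaffolds, ion channels, signalling inhibitors and chromatin regulators.

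Signals are quoted in deposited units, in which each array has nearly the same trimmed mean. Median signals of the 9 set B arrays lay between 181 and 275 units. The background level, the 95th percentile of 27 negative control probe sets, was 369 units, and values below it carry no order. The 3 arrays numbered 1 (1 at each time) hold values below 0 for at least 27.4% of probe sets and the other 6 hold none, so replicate number entered every fit as a block. Log2 differences are on the log2(signal + 16) scale after quantile normalization, are 6 h minus 0 h unless said otherwise, and are given ± their standard error from limma. A probe set was called higher or lower at an adjusted p under 0.05 (limma, Benjamini-Hochberg over 16883 tested probe sets). Pan-neuronal markers were present, with both means of 8 of 10 tested genes above background, among them Mapt, Map2, Rbfox3 and Syt1. Of the marker lists of other cells, both means were above background for 9 of 12 astrocyte genes (Gfap included, Slc1a3 and Sox9 below it), 6 of 7 of the oligodendrocyte lineage, 3 of 6 of microglia and 2 of 4 of vascular cells. A sign of RNA quality differed: Gapdh control probe sets had a 5′ signal over 3′ signal of 1.21 ± 0.143 (SD, n = 3) on 6 h arrays and 0.855 ± 0.218 on 0 h arrays. For Actb the quotient was 0.574 ± 0.0579 at 6 h and 0.366 ± 0.0840 at 0 h. A two-sided exact permutation test gave p = 0.1 for each, the smallest p that 3 arrays against 3 allow. The part of RNA quality in the calls was not tested beyond a fit with the Gapdh ratio as a covariate.

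After 6 h of KCl, 635 probe sets were higher (3.76% of those tested) and 833 were lower (4.93%), 1468 in all (8.7%). Those called higher included genes of activity-dependent transcription and peptide signalling, and those called lower included glutamate receptor, axon guidance and adhesion genes. In cultures of mixed cells, fewer cells of a type and less RNA per cell cannot be told apart. The median size of the log2 difference was 1.11 among the 635 and 1.08 among the 833, and 115 and 133 of them exceeded 2. Calls followed the level of signal: in 4 equal classes of mean level, from dim to bright, 0.498%, 1.59%, 5.57% and 27.1% of probe sets were called. Probe sets with 1 gene symbol were called in 11.7% of 11607 cases and unnamed ones in 1.95% of 5087. With 1 probe set per gene (the one of highest mean), 397 of 8012 genes were higher (4.96%) and 623 lower (7.78%), 12.7% together, with a median log2 difference of -0.04. Among the 4464 genes with both means above background these shares were 7.91%, 12.2% and 20.1%. The counts for gene groups that follow use the same 1 probe set per gene and stand beside these shares. The groups were chosen with earlier results of these data known, which can raise the share called in a group. Under median scaling in place of quantile normalization 332 probe sets were higher and 1098 lower, so the balance of directions depended on scaling. Without the intensity trend in the variance model 30 were higher and 10 lower, and with the Gapdh ratio as a covariate 11 were higher and 0 lower (624 and 560 at an unadjusted p under 0.05). That ratio did not overlap between times (1.13, 1.13 and 1.37 at 6 h, and 0.833, 0.650 and 1.08 at 0 h), and with it in the fit the standard error of the difference was a median of 2.85 times that without it, so time and ratio could not be fully told apart. In fits that left out each of the 9 arrays in turn, 308 of the 635 and 367 of the 833 were called every time. Where a named call was lost in such fits, the arrays whose omission ended it follow by time and number at the end of the paragraph, with the highest adjusted p.

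**Figure D1:**
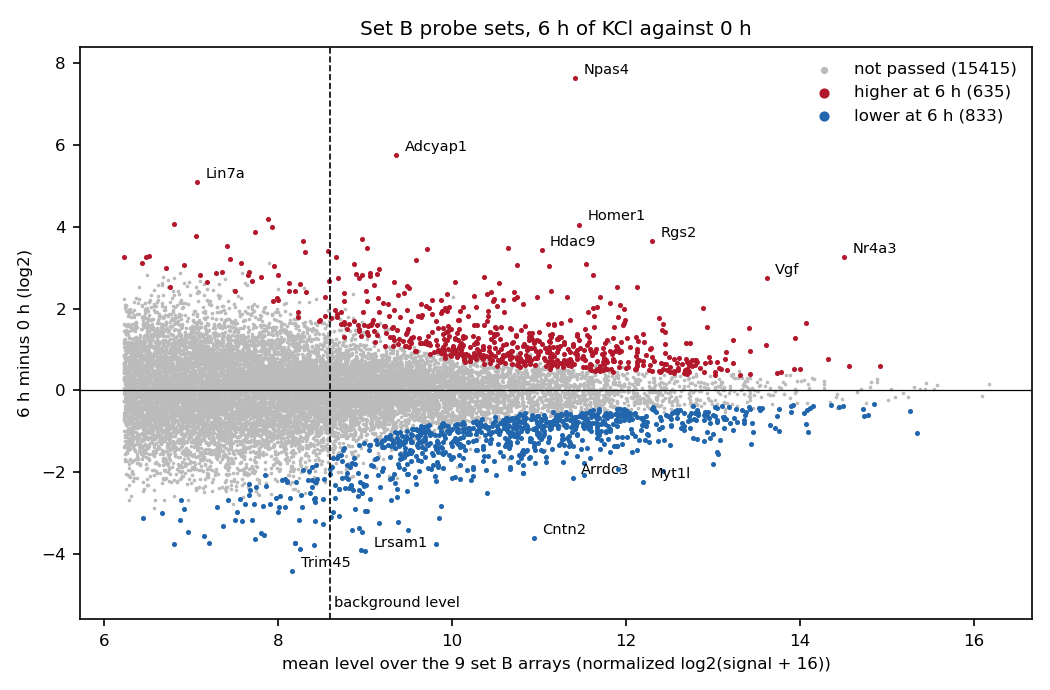
Each point is 1 of 16883 set B probe sets, placed by its mean level over the 9 arrays (normalized log2 scale, x axis) and its 6 h minus 0 h log2 difference (y axis), with red for the 635 called higher, blue for the 833 called lower and a dashed line at the background level. Left of that line the differences scatter widely and few are called, while Npas4, Homer1, Rgs2, Hdac9 and Nr4a3 stand above the cloud and Cntn2 below it.

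Transcription factors of the early wave were among the genes that rose. Npas4, a basic helix-loop-helix factor whose own transcription follows calcium entry and which promotes the formation of inhibitory synapses, had signals of 14125, 13594 and 6838 on the 6 h arrays, against -567, 31.9 and 141 on the 0 h arrays. All 3 arrays at 6 h were far above background and all 3 at 0 h were below it, so the groups did not overlap, which held for 18.7% of tested probe sets. Npas4 was thus at least 29.1-fold higher at 6 h, taking the background level for 0 h (adjusted p = 4.04e-07). Nr4a3, an orphan nuclear receptor of the family that also holds Nr4a1 and Nr4a2, gave 68627, 56029 and 52364 at 6 h and 6825, 6083 and 5876 at 0 h. Its groups lay far apart on bright signals, and the rise was 9.61-fold (log2 3.26 ± 0.10, adjusted p = 2.26e-09). Nr4a2 averaged 2844 ± 688 units at 6 h and 291 ± 159 at 0 h (SD, n = 3 each), at least 7.14-fold higher (adjusted p = 9.83e-05). Fosl2, which pairs with Jun proteins in the AP-1 factor, gave 12376, 8158 and 5154 at 6 h and 969, 958 and 905 at 0 h. Its 6 h arrays spread more widely than its 0 h arrays, and the groups still stood apart (log2 3.10 ± 0.23, adjusted p = 5.81e-06). Csrnp1, a nuclear protein of a small cysteine- and serine-rich family, was at least 2.88-fold higher (adjusted p = 0.000391).

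Of the 18 early transcription factors tested, 8 were higher and 2 lower, with a median log2 difference of 0.74. The other members called higher were Arid5b, an AT-rich interaction domain protein (1.30 ± 0.15 in log2 units), the zinc-finger factor Egr3 (at least 1.55-fold) and the Krüppel-like factor Klf6 (0.86 ± 0.20). The Krüppel-like Klf11 (-0.82 ± 0.17) and Csrnp3, a relative of Csrnp1 (-1.03 ± 0.13), fell. The brightest members that did not pass were Csrnp2 (-0.46 ± 0.21) and Mef2d (0.30 ± 0.22), a target of calcium signalling in neurons. Leaving out 1 array ended the call of Egr3 (6 h array 1, 0 h array 1, adjusted p up to 0.0546), Klf6 (6 h array 1, 0 h arrays 1 or 3, adjusted p up to 0.132) and Klf11 (6 h array 2, 0 h array 2, adjusted p up to 0.0677).

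Homer1 and Rgs2 gave the largest rises among genes with both means above background. Homer1 encodes a postsynaptic scaffold that ties metabotropic glutamate receptors to their partners, and neuronal activity is known to induce a short form of it. Its probe set 1436387_at had signals of 17369, 13368 and 13774 at 6 h and 1067, 867 and 685 at 0 h. The groups were far apart, and the fitted rise was 16.6-fold (log2 4.05 ± 0.15, adjusted p = 1.1e-08). Another Homer1 probe set, the one of highest mean, gave a log2 difference of 0.46 ± 0.13 that did not pass, so probe sets for the same gene differed in size of change. Which transcript form each one measures is not given in the sources used here. Rgs2, which speeds GTP hydrolysis by Gq alpha subunits and so shortens receptor signalling, gave 25396, 17929 and 16864 at 6 h and 1991, 1389 and 1498 at 0 h. Its groups were likewise far apart, 12.5-fold (log2 3.64 ± 0.11, adjusted p = 2.26e-09). Both genes passed under each of the 21 alternatives, the Gapdh ratio covariate included.

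Of 15 activity-regulated signalling effectors tested, 8 were higher and 0 lower by limma (10 and 0 at an unadjusted p under 0.05), with a median log2 difference of 1.28. Besides Rgs2 these were Rem2, a small GTPase that inhibits voltage-gated calcium channels, at 1447 ± 149.7 units at 6 h and 294 ± 248 at 0 h (SD, n = 3 each). Peli1, a ubiquitin ligase best known from innate immune signalling, rose by log2 2.40 ± 0.35, and the orphan receptor Gpr22 by 2.20 ± 0.53. The salt-inducible kinases Sik3 (1.37 ± 0.17) and Sik2 (1.31 ± 0.14), which phosphorylate CREB coactivators and class IIa histone deacetylases, rose too, as did the splicing regulator Mbnl2 (1.36 ± 0.19) and the Ras activator Rasgrp1 (1.28 ± 0.24). Rgs17, a further regulator of G protein signalling, did not pass (-0.26 ± 0.18). Single-array omission ended the call of Gpr22 (6 h arrays 1 or 2, 0 h arrays 2 or 3, adjusted p up to 0.147).

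Hdac9, a class IIa histone deacetylase that binds MEF2 factors, had 8237, 6736 and 5956 units at 6 h and 826, 669 and 482 at 0 h. The groups stood apart and the rise was 10.7-fold (log2 3.42 ± 0.18, adjusted p = 4.04e-07). Class IIa relatives rose too, Hdac4 by log2 1.29 ± 0.16 and Hdac5 by 1.24 ± 0.11, with Hdac5 means of 16447 ± 5098 at 6 h and 7117 ± 2299 at 0 h (SD, n = 3 each).

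Promoter windows are shown for Npas4 and for 3 of the 4 genes with the largest rises above background, because CREB and related factors bind a core motif, TGACG, near the starts of many activity-regulated genes. Sequences are from RefSeq (build GRCm38.p6), run 5′ to 3′ along the gene's strand over the 250 bases before the annotated start, and carry TGACG, or CGTCA on the other strand, in capitals. They lie at chr19:4989972-4990221 (minus strand) for Npas4, chr4:48045055-48045304 (plus strand) for Nr4a3, chr13:93303507-93303756 (plus strand) for Homer1 and chr1:144004150-144004399 (minus strand) for Rgs2.
Npas4: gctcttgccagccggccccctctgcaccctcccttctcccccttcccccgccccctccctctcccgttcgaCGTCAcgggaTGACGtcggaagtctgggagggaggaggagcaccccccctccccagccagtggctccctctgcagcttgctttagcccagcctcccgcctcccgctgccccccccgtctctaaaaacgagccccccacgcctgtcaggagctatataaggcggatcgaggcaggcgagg
Nr4a3: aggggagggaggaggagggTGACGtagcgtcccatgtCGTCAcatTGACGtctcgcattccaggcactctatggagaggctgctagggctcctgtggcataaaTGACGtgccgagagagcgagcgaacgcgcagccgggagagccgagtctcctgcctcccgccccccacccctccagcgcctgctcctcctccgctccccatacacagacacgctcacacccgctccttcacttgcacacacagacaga
Homer1: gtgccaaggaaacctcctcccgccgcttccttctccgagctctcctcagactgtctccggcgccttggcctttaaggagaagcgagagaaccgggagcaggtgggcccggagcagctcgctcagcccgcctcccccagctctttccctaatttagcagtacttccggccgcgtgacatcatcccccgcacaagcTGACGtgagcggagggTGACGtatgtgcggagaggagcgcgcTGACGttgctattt
Rgs2: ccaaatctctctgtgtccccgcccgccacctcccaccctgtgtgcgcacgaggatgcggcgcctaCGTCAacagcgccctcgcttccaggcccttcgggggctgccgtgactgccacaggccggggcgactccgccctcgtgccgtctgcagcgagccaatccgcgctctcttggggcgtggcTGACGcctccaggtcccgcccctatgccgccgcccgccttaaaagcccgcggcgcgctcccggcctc
Nr4a3 holds 4 copies of the motif, Homer1 holds 3, and Npas4 and Rgs2 hold 2 each. The other annotated Homer1 start and both starts of Hdac9 hold none in their windows, which says only that these letters are absent there. Over windows of 300 bases (250 before and 50 after the start, either strand), TGACG stood in a promoter of 45.52% of 279 genes that were higher and above background. It stood in one of 33.33% of 420 genes that were lower and of 34.37% of 3585 genes tested above background. Over all 27025 genes with promoter windows the share was 23.05% (20.81% of the 32851 windows). The full palindrome TGACGTCA, which contains TGACG, was found for 6.093% of the genes that were higher, 3.81% of those that were lower and 3.794% of those tested above background. For TGANTCA, the AP-1 motif, these shares were 8.244%, 8.333% and 6.025%, and for GCGTG, a core of basic helix-loop-helix PAS factor motifs, 56.63%, 60.95% and 54.53%. A match is a description of the letters, not of binding, and these shares were not tested.

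**Figure D2:**
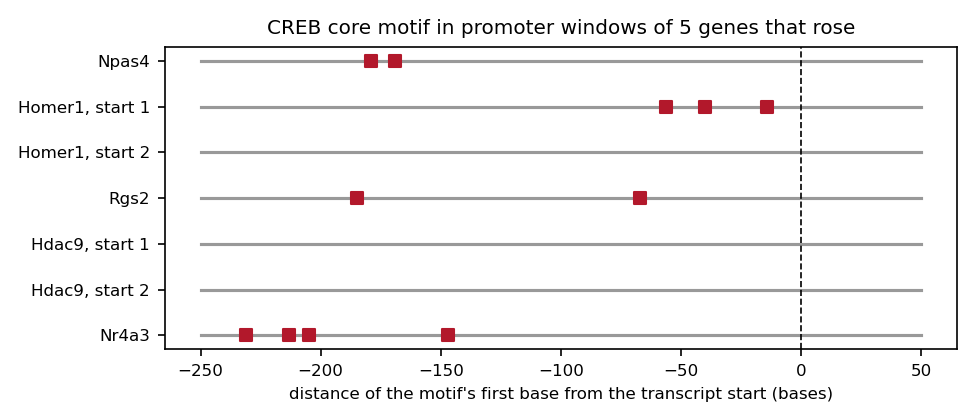
Each grey line is 1 annotated promoter window, from 250 bases before to 50 bases after the transcript start (dashed line), and each red square is 1 copy of the CREB core motif on either strand, by the distance of its first base from the start. Nr4a3 has 4 copies, the first Homer1 start has 3, Npas4 and Rgs2 have 2 each, and the other Homer1 start and both Hdac9 starts have none.

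Secreted factors included some of the steepest rises. Adcyap1, the gene for the neuropeptide PACAP, had signals of 7438, 3392 and 3519.7 at 6 h and 121, 20.4 and 124 at 0 h. Every 0 h array was below background, so the rise was at least 11.9-fold (adjusted p = 2.82e-06). Vgf, a peptide precursor of the regulated secretory pathway, gave 35803, 22203 and 24565 at 6 h and 3154, 4859 and 4850.1 at 0 h. Its groups did not overlap and it rose 6.74-fold (log2 2.75 ± 0.18, adjusted p = 2.93e-06). Igf1, insulin-like growth factor 1, gave 5129, 3613 and 3489 at 6 h and 518, 749 and 644 at 0 h, a 6.16-fold rise with groups apart (adjusted p = 2.12e-05). Neuritin (Nrn1, log2 1.60 ± 0.16) and the synapse organizer Cbln2 (1.08 ± 0.21) were also higher. Ccbe1, a secreted protein known from lymphatic development, went the other way with 211, 376 and 117 at 6 h and 2040.1, 3511 and 2662 at 0 h. Each 0 h signal was far above every 6 h signal, and Ccbe1 was at least 6.75-fold lower (adjusted p = 4.13e-05). In the list of 24 tested neuropeptides and secreted factors, 5 were higher and 1 lower (median log2 difference 0.28). Wnt7a did not pass (-0.11 ± 0.20). With 1 array left out the test was no longer passed by Cbln2 (6 h array 2, adjusted p up to 0.0511).

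Some negative regulators of MAP kinase signalling were higher. Of 26 tested, 4 were higher and 0 lower by limma (5 and 1 at an unadjusted p under 0.05), and the median was 0.12. Dusp4, a phosphatase that inactivates ERK in the nucleus, averaged 11588 ± 2425 units at 6 h and 2093 ± 269 at 0 h (SD, n = 3 each; log2 2.53 ± 0.13, adjusted p = 4.04e-07). Dusp3 (2.06 ± 0.38), the receptor kinase inhibitor Spry4 (1.52 ± 0.17) and the Ras GTPase activator Rasa2 (0.78 ± 0.15) were higher too, and all 4 calls were made with each array left out in turn. Dusp8, the brightest member that did not pass, gave 0.11 ± 0.14.

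**Figure D3:**
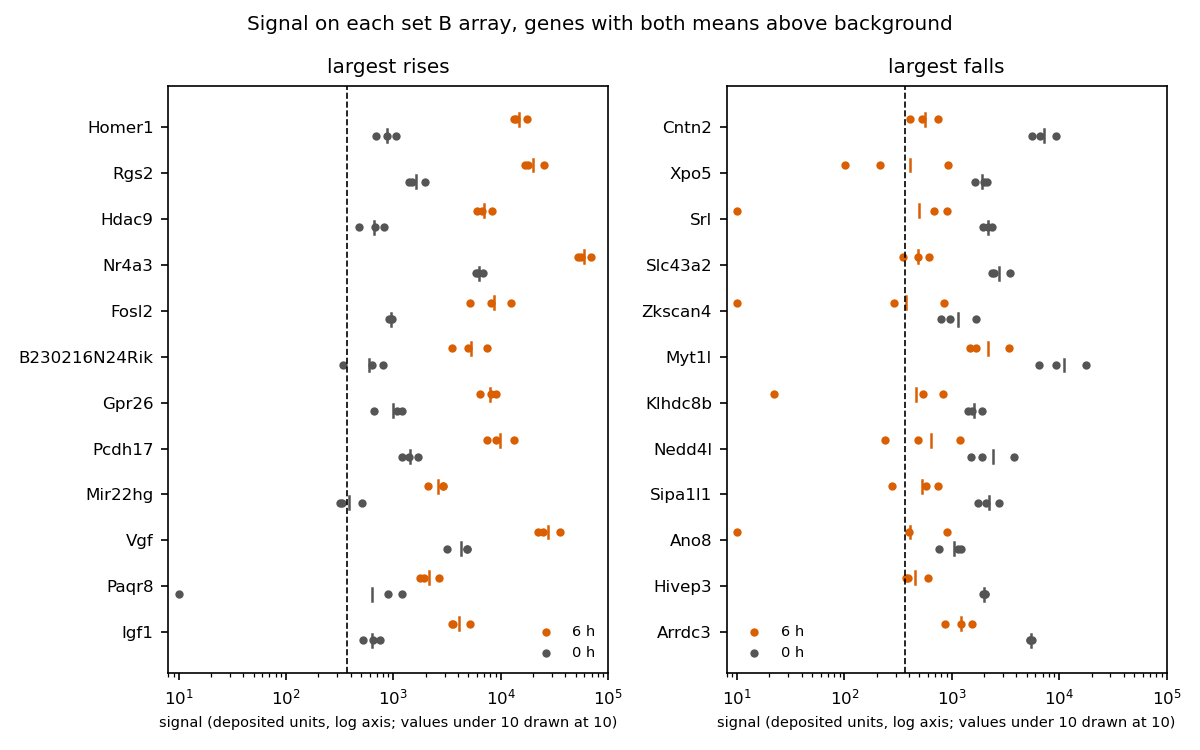
Signal of each set B array (log x axis, deposited units, values under 10 drawn at 10) at 6 h (orange) and 0 h (grey) for the 12 largest rises (left) and 12 largest falls (right) among genes with both means above background, with a short bar at each group mean and a dashed line at the background level. Every 6 h point lies right of every 0 h point among the rises, and among the falls the groups overlap for Zkscan4 and Ano8.

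Of 41 potassium channel genes tested, 5 were higher and 3 lower (median -0.09). Kcna1, the Kv1.1 subunit that limits axonal firing, averaged 5017 ± 543 at 6 h and 1074 ± 154 at 0 h (SD, n = 3 each; log2 2.27 ± 0.18, adjusted p = 1.15e-05). Kcnj3, a subunit of G protein-gated inward rectifiers, rose by log2 1.42 ± 0.25. Kcnq3, a subunit of the M-current channel, fell (-1.54 ± 0.30), and Kcng1, a modifier subunit, was at background at 6 h and at least 1.79-fold lower. Kcnf1, another modifier subunit, rose on both of its probe sets, by log2 1.26 ± 0.14 on the brighter one and by at least 4.10-fold on the dimmer. Without the replicate block the 3 lower calls were lost. The call did not hold without single arrays for Kcnq3 (0 h array 1, adjusted p up to 0.0504) and Kcng1 (6 h arrays 1 or 3, 0 h arrays 1 or 3, adjusted p up to 0.129).

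In the list of calcium, sodium and HCN channels, 32 genes were tested, of which 2 were higher and 5 lower (median -0.13). Its name pattern had also taken in the anoctamins, a separate family, so these counts include Ano6, called higher, and Ano8, called lower. Scn2a, the sodium channel of developing axons, averaged 1597 ± 246 at 6 h and 4696 ± 867 at 0 h (SD, n = 3 each), a fall with adjusted p = 0.000116. Cacna1b, the pore of N-type calcium channels at release sites, gave 1402 ± 452 at 6 h and 3534 ± 695 at 0 h (adjusted p = 0.000238). The other falls were Scn2b (-1.15 ± 0.25), Cacna1e (-0.87 ± 0.21) and Ano8 (-2.16 ± 0.61). The calcium channel subunit Cacna2d1 (0.43 ± 0.12) and the scramblase Ano6 (1.11 ± 0.26) were higher. Omission of 1 array took the call from Scn2b (0 h arrays 1 or 2, adjusted p up to 0.078), Cacna1e (6 h arrays 1 or 2, 0 h arrays 1 or 2, adjusted p up to 0.162), Ano8 (6 h arrays 1 or 3, 1 h arrays 2 or 3, 0 h arrays 1 or 2 or 3, adjusted p up to 0.237) and Cacna2d1 (6 h arrays 1 or 2 or 3, 1 h array 1, 0 h arrays 1 or 2 or 3, adjusted p up to 0.237). Calls were lost in fits without 1 array for Ano6 (6 h array 3, 0 h array 3, adjusted p up to 0.112).

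Genes of glutamate receptors and their auxiliary subunits were called lower more often than higher: of 27 tested, 10 were lower and 1 higher, with a median of -0.56 against -0.04 over all genes. Gria2, the AMPA receptor subunit that blocks calcium permeability, had signals of 3567, 2871 and 3771 at 6 h and 7845, 6491 and 7095 at 0 h. The groups did not overlap (log2 -0.94 ± 0.12, adjusted p = 0.000291). The NMDA receptor subunit Grin2b, prominent in young neurons, gave 1037, 605 and 718 at 6 h and 1959, 1723 and 1428 at 0 h, again with no overlap (log2 -1.16 ± 0.22, adjusted p = 0.00434). The metabotropic receptors Grm7 (-1.35 ± 0.24) and Grm5 (-1.06 ± 0.21) were lower, and Grik4, a kainate receptor subunit, was called lower with its 6 h mean at background (adjusted p = 0.0482). Further members called lower were the AMPA receptor partners Cacng2 (-0.88 ± 0.15) and Cacng4 (-0.55 ± 0.15), Shisa4 (-0.55 ± 0.11), the kainate receptor partner Neto2 (-0.57 ± 0.14) and Gria4 (-0.70 ± 0.15). Grm2, a presynaptic group II receptor, was the member called higher (1.23 ± 0.35, adjusted p = 0.0493). Cnih4 (-0.40 ± 0.16) and Grin2d (0.00 ± 0.18) did not pass. Members were listed by a name pattern, so the presence of Shisa4 and Cnih4 does not show that they serve glutamate receptors. The count of lower calls was 11 under median scaling and 7 without the replicate block, and 5 of the 10 were called with every array left out in turn. The summed signal of the 27 genes ran from 34144 to 42488 on the 6 h arrays and from 51613 to 60486 on the 0 h arrays. Leaving out 1 array ended the call of Grm5 (0 h arrays 2 or 3, adjusted p up to 0.0534), Grik4 (6 h arrays 1 or 2 or 3, 1 h array 2, 0 h arrays 1 or 2 or 3, adjusted p up to 0.249), Cacng4 (6 h array 3, 0 h arrays 1 or 2 or 3, adjusted p up to 0.196) and Neto2 (6 h array 3, 0 h arrays 2 or 3, adjusted p up to 0.132). Single-array omission ended the call of Gria4 (6 h arrays 1 or 3, 0 h arrays 1 or 3, adjusted p up to 0.0759) and Grm2 (6 h arrays 1 or 2 or 3, 1 h array 2, 0 h arrays 1 or 2 or 3, adjusted p up to 0.216).

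Of 14 tested genes of GABA synthesis, transport and reception, 4 were called (28.6%, against 12.7% of all genes and 20.1% of those above background). Of these 4, 3 were higher: the receptor subunits Gabra4 (0.78 ± 0.18) and Gabrb2 (0.63 ± 0.12) and Gad2, the GABA-synthesizing enzyme at terminals (0.74 ± 0.16). Slc6a11, the GABA transporter of astrocytes, averaged 2341 ± 513 at 6 h and 5754 ± 1036 at 0 h (SD, n = 3 each; adjusted p = 0.000993). Under median scaling the 3 higher calls were lost and Slc6a11 was still called lower. Gabra5 (0.34 ± 0.15) and Gabra2 (0.10 ± 0.16) did not pass on their probe sets of highest mean. Another Gabra2 probe set on set B was called higher (0.71), as was Gabra2 on set A (1.03). With 1 array left out the test was no longer passed by Gabra4 (6 h arrays 1 or 3, 0 h arrays 1 or 3, adjusted p up to 0.11) and Gad2 (6 h arrays 2 or 3, 0 h array 3, adjusted p up to 0.0759).

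Most synaptic adhesion and axon guidance genes were not called, and lower calls outnumbered higher ones in both lists, as among all genes. Of 52 adhesion genes tested, 10 were lower and 3 higher (median -0.19), and 8 of the 10 were called with each array left out. Cntn2, an immunoglobulin-family protein of axons, had 406, 748 and 529 units at 6 h and 9335, 6563 and 5614 at 0 h. The groups were far apart and the fall was 12.2-fold (log2 -3.61 ± 0.22, adjusted p = 1.56e-06). The neurexin partners Nlgn3 (-1.26 ± 0.20) and Igsf21 (-1.22 ± 0.16) were lower as well, while Lrrc4c, a postsynaptic ligand of netrin-G1, rose by log2 2.04 ± 0.16 with means of 5986 ± 863 at 6 h and 1523 ± 136 at 0 h. Adgrl2, a latrophilin, did not pass (-0.35 ± 0.12). Of 46 axon guidance genes, 9 were lower and 4 higher (median -0.08). The ephrins split: Efna2 (-1.53 ± 0.28) and Efna3 (-1.42 ± 0.19) fell and Efna5 rose (0.99 ± 0.22). The semaphorins' receptor Plxna2 (-1.07 ± 0.13) and Sema4f (-1.12 ± 0.18) fell, and Rtn4, the growth inhibitor Nogo, rose (1.09 ± 0.16). The call did not hold without single arrays for Efna5 (6 h arrays 1 or 2, 0 h arrays 1 or 2, adjusted p up to 0.0838).

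Cadherins and protocadherins gave 5 higher and 1 lower of 24 tested, although their median was -0.00. Pcdh17, a delta2 protocadherin, had 13147, 9064 and 7484 units at 6 h and 1412, 1202 and 1709 at 0 h (log2 2.82 ± 0.19, adjusted p = 3.72e-06). Its groups stood apart. Pcdh8, an activity-induced protocadherin also called arcadlin, averaged 32500.1 ± 5194 at 6 h and 11205 ± 1659 at 0 h (SD, n = 3 each; log2 1.66 ± 0.13, adjusted p = 9.1e-06). The large cadherin Fat1 rose by log2 1.54 ± 0.12 and Pcdh7 was at least 1.99-fold higher. Cdh13 (0.12 ± 0.13) and Pcdh9 (0.48 ± 0.21) did not pass. Omission of 1 array took the call from Pcdh7 (6 h arrays 1 or 2 or 3, 0 h arrays 1 or 3, adjusted p up to 0.115).

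Vesicle release genes gave 6 lower and 1 higher of 37 tested (median -0.06). Synapsin 3 (Syn3, -1.19 ± 0.15), synaptotagmin 7 (Syt7, -0.94 ± 0.17) and synapsin 2 (Syn2, -0.85 ± 0.11), proteins of the vesicle pool and of calcium sensing, were lower, and Sv2c, a vesicle protein, was at least 2.48-fold higher. Syt1, the fast calcium sensor, did not pass (0.27 ± 0.11). Of 77 genes of Rab, Arl and TBC traffic proteins, 9 were higher and 7 lower (median 0.11). Rab23 was at least 2.77-fold lower and Tbc1d7 at least 2.55-fold lower, while the synaptic vesicle GTPase Rab3c rose on bright signals, averaging 23354 ± 3639 at 6 h and 10525 ± 1214 at 0 h (SD, n = 3 each; log2 1.27 ± 0.12). Rabgap1l was at least 2.51-fold higher. Calls were lost in fits without 1 array for Sv2c (6 h arrays 1 or 2 or 3, 0 h arrays 1 or 3, adjusted p up to 0.0877) and Rabgap1l (6 h array 2, adjusted p up to 0.0528).

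Kinase and second messenger genes showed changes in both directions. Prkar2a, a regulatory subunit of protein kinase A, had 24209.8, 15207 and 12796 units at 6 h and 6127, 3762 and 3229 at 0 h. The groups did not overlap and the rise was 4.07-fold (log2 2.02 ± 0.11, adjusted p = 5.71e-07). Of the 43 genes of cyclic nucleotide signalling, 5 were higher and 6 lower (median 0.04), among them Pde4dip, which anchors phosphodiesterase (1.62 ± 0.19), Akap2 (-1.27 ± 0.30) and Pde12, at least 1.75-fold lower. Of 21 calcium-dependent kinase, calcineurin and NFAT genes 5 were lower and 0 higher by limma (7 and 1 at an unadjusted p under 0.05, median -0.27). Camk2a, the kinase of postsynaptic potentiation, averaged 1075 ± 390.3 at 6 h and 2435 ± 566 at 0 h (SD, n = 3 each; log2 -1.19 ± 0.28, adjusted p = 0.0179), and 1 of the 5 calls was made with every array left out. Of 58 protein phosphatase genes outside the Dusp family, 8 were higher and 5 lower, a balance that became 3 and 8 under median scaling. Phactr3 (1.54 ± 0.13), Ppm1l (1.52 ± 0.11) and the receptor phosphatase Ptprg (1.19 ± 0.12) rose, and Ppp1r3e, which targets a phosphatase to glycogen, fell (-1.26 ± 0.16). Leaving out 1 array ended the call of Akap2 (6 h arrays 2 or 3, 0 h arrays 2 or 3, adjusted p up to 0.151), Pde12 (6 h arrays 1 or 2 or 3, 1 h array 1, 0 h arrays 1 or 2 or 3, adjusted p up to 0.249) and Camk2a (6 h array 3, 0 h arrays 2 or 3, adjusted p up to 0.141).

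**Figure D4:**
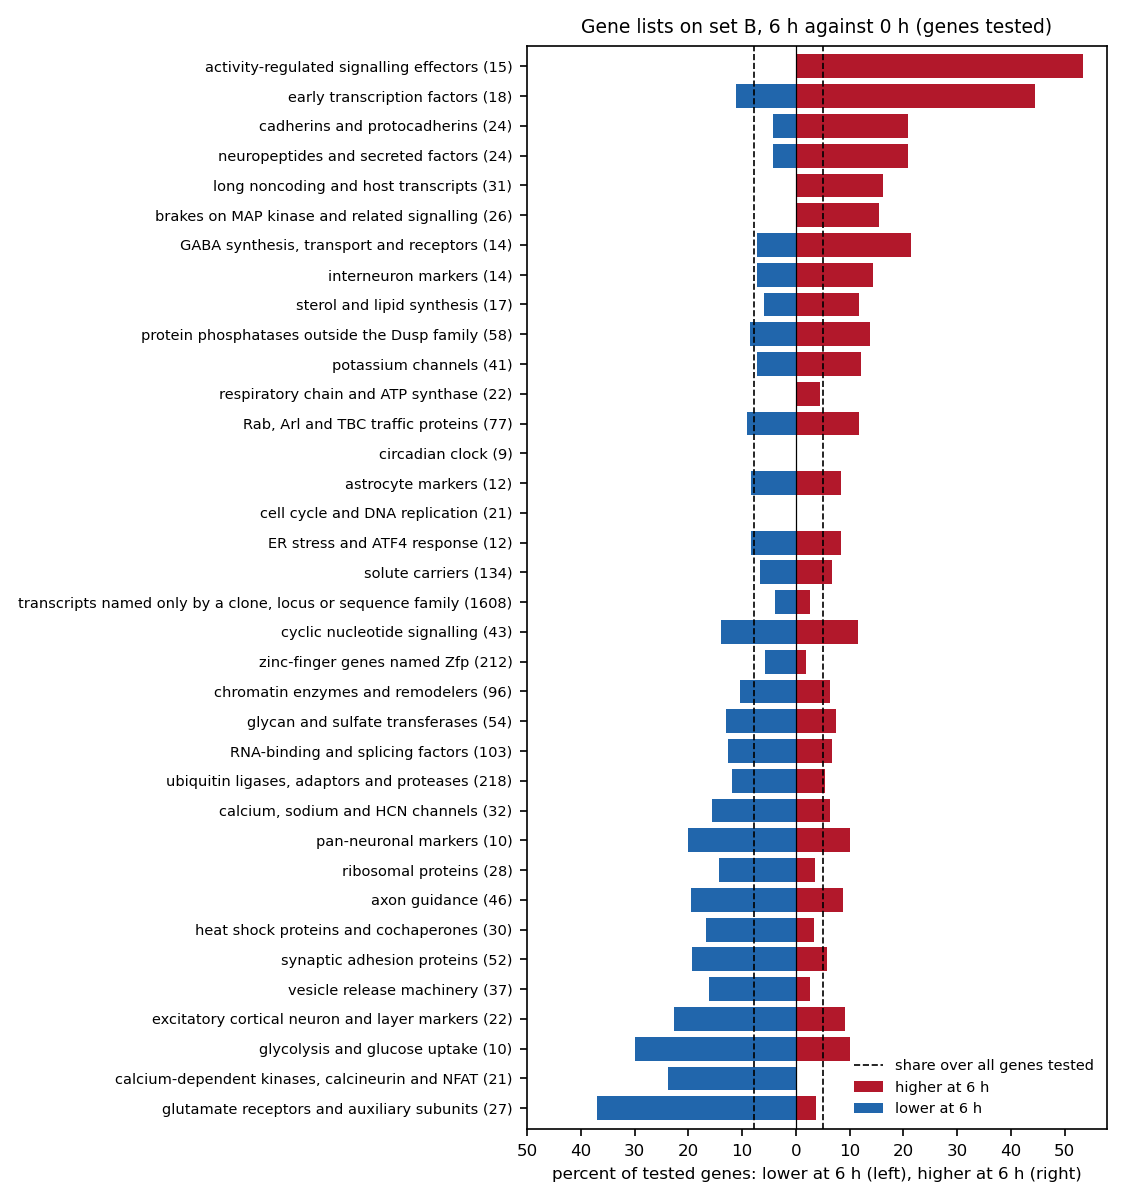
For each gene list reported here with at least 9 tested genes (number tested in parentheses), the red bar gives the percent of genes higher at 6 h and the blue bar the percent lower, against dashed lines at the shares of all 8012 genes (4.96% and 7.78%). Signalling effectors (8 of 15 higher) and early transcription factors (8 of 18 higher) stand at the top, and glutamate receptors (10 of 27 lower) at the bottom. The lists were chosen with earlier results of these data known.

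Lower calls also outnumbered higher ones among chromatin, RNA-binding and zinc-finger genes, as among all genes (623 lower and 397 higher). Of 96 chromatin genes 10 were lower and 6 higher (median -0.01). Brd8 was at least 1.57-fold lower, Smarcal1, an annealing helicase, fell (-1.64 ± 0.17), and the remodeler Chd2 rose (1.30 ± 0.15). Of 103 RNA-binding and splicing factors 13 were lower and 7 higher. Hnrnpdl, a nuclear ribonucleoprotein, had 1497, 770.4 and 1187 units at 6 h and 6167, 5592 and 3405 at 0 h. All 3 signals at 6 h were below all 3 at 0 h (log2 -2.08 ± 0.21, adjusted p = 8.13e-05). Hnrnpd, its AU-rich element-binding relative, fell (-1.66 ± 0.18), as did Tial1, a stress granule protein (-1.69 ± 0.23), and Tob2 was at least 1.59-fold higher. Of 212 genes named Zfp 12 were lower and 4 higher (median -0.26), with Zfp874b called lower from means below background at both times, Zfp467 at least 2.12-fold lower and Zfp804a at least 2.53-fold higher. Zfp462 fell on clear signals, averaging 1141 ± 24.6 at 6 h and 3791 ± 292 at 0 h (SD, n = 3 each; log2 -1.64 ± 0.18). Single-array omission ended the call of Brd8 (0 h arrays 1 or 2 or 3, adjusted p up to 0.0673), Tob2 (6 h arrays 1 or 2 or 3, 1 h arrays 2 or 3, 0 h arrays 1 or 2 or 3, adjusted p up to 0.171) and Zfp467 (0 h arrays 2 or 3, adjusted p up to 0.0696).

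Ubiquitin ligases, adaptors and proteases made up the largest list of named proteins, with 26 lower and 12 higher of 218 tested (median -0.06). Trim45 and Lrsam1, both RING-type ligases, were lower. Trim45 gave -57.1, 55.0 and 53.4 at 6 h and 882, 1092 and 576 at 0 h, at least 2.20-fold lower (adjusted p = 0.00015). Lrsam1 gave 55.6, 140.2 and 54.4 at 6 h and 1720.1, 1069.9 and 1030.1 at 0 h, at least 3.20-fold lower (adjusted p = 3.5e-05). For both genes all 6 h signals were below background and all 0 h signals above it. Klhl4, a Kelch-type adaptor, was at least 4.04-fold higher, and Rnf217 rose by log2 2.01 ± 0.15. Of these 38 calls, 14 were made with every array left out. Of 54 glycan and sulfate transferases 7 were lower and 4 higher (median -0.20). Chst8, a sulfotransferase acting on N-acetylgalactosamine, was at least 1.93-fold higher (adjusted p = 0.0039, or 0.0624 without the arrays numbered 1). Galnt9, an initiator of mucin-type glycosylation, was at least 3.74-fold lower (adjusted p = 0.00272). The sialyltransferases St6gal2 (-1.46 ± 0.20) and St8sia1 (-1.25 ± 0.32) were lower. With 1 array left out the test was no longer passed by St8sia1 (6 h arrays 1 or 2 or 3, 0 h arrays 1 or 2, adjusted p up to 0.208).

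Solute carriers gave 9 higher and 9 lower of 134 tested (median -0.04). Slc43a2, a carrier of large neutral amino acids, had 488, 354 and 609 at 6 h and 3495, 2449 and 2379.8 at 0 h. The groups did not overlap and the fall was 5.69-fold (adjusted p = 2.06e-05). Slc38a2, a carrier of small neutral amino acids, was at least 3.43-fold higher, Slc2a6, a sugar carrier relative, and Slc29a2, a nucleoside carrier, at least 2.40- and 1.26-fold lower, and the vesicular amino acid carrier Slc6a17 rose by log2 1.72 ± 0.19. In glycolysis and glucose uptake, Arrdc3, an arrestin-domain protein, gave 1542, 1222 and 856 at 6 h and 5528, 5359.7 and 5379 at 0 h. Its groups stood apart (log2 -2.15 ± 0.18, adjusted p = 1.78e-05), and of the 10 genes tested 3 were lower and 1, the glycolytic enzyme Aldoa (0.59 ± 0.15), higher. The call did not hold without single arrays for Slc29a2 (6 h arrays 2 or 3, 1 h arrays 1 or 2 or 3, 0 h arrays 1 or 2 or 3, adjusted p up to 0.309) and Aldoa (6 h arrays 2 or 3, 0 h arrays 1 or 3, adjusted p up to 0.173).

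In housekeeping and stress lists the shares called lay on both sides of the 12.7% of all genes, and ran from 20% of heat shock genes to 4.55% of respiratory chain genes and 0 for clock and cell cycle genes. Heat shock genes gave 5 lower and 1 higher of 30 tested, with Dnajb14 at least 2.77-fold lower, Hspa12a lower (-1.77 ± 0.15) and Hspa4l higher (1.55 ± 0.28). Sterol and lipid synthesis genes gave 2 higher, Stard4 (1.29 ± 0.15) and Agpat4 (0.82 ± 0.12), and 1 lower of 17. Uqcrh was the member called of 22 respiratory chain genes (0.66 ± 0.17). The list of ribosomal proteins held 28 tested genes with 1 higher and 4 lower, but its pattern had also taken in the kinases Rps6ka6 (1.04 ± 0.16) and Rps6ka5 (-1.84 ± 0.23), so that the ribosomal members called were Rps3 (-1.34 ± 0.15) and the mitochondrial Mrps27 (-1.26 ± 0.30) and Mrpl52 (-0.58 ± 0.13). Of 12 ER stress genes 1 was higher and 1 lower. By limma 0 of 9 circadian clock genes and 0 of 21 cell cycle genes were called (0 clock genes, and 1 cell cycle gene higher and 3 lower, at an unadjusted p under 0.05). Omission of 1 array took the call from Uqcrh (6 h arrays 1 or 2 or 3, 0 h arrays 2 or 3, adjusted p up to 0.218), Mrps27 (6 h arrays 1 or 3, 0 h array 1, adjusted p up to 0.148) and Mrpl52 (6 h arrays 2 or 3, 0 h arrays 1 or 3, adjusted p up to 0.0949).

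Long noncoding and host transcripts gave 5 higher and 0 lower of 31 tested by limma (6 and 1 at an unadjusted p under 0.05, median 0.14). Mir22hg, the transcript that hosts the microRNA miR-22, had 2876, 2909 and 2095 units at 6 h and 511, 321 and 332 at 0 h. The groups did not overlap (log2 2.77 ± 0.22, adjusted p = 1.18e-05). Malat1, an abundant nuclear transcript, averaged 5236 ± 979 at 6 h and 1000.4 ± 126 at 0 h on its probe set (SD, n = 3 each; log2 2.43 ± 0.30), and Dlx6os1, an antisense transcript of the interneuron Dlx locus, rose by log2 1.69 ± 0.25. Which strand the probes read is not given in the sources used here. Transcripts named only by a clone, locus or sequence family gave 42 higher and 63 lower of 1608 tested, with B230216N24Rik at 7372, 4997 and 3484 at 6 h and 342, 806 and 636 at 0 h (adjusted p = 4.13e-05). Of the unnamed probe sets, those named for their fitted change were 1431197_at and 1440137_at, which were higher (at least 1.85-fold and 1.36-fold), and 1442905_at and 1441391_at, which were lower (at least 2.15-fold and 1.36-fold). Calls were lost in fits without 1 array for 1440137_at (6 h arrays 1 or 3, 0 h arrays 1 or 2 or 3, adjusted p up to 0.134) and 1441391_at (6 h arrays 1 or 2 or 3, 0 h arrays 1 or 2, adjusted p up to 0.228).

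Marker lists with calls had shares from 16.7% of astrocyte markers to 31.8% of excitatory neuron and layer markers, in lists of 7 to 22 tested genes. The share was 12.7% over all genes and 20.1% over genes with both means above background, where most of these markers lay. With so few genes per list, differences from these shares were not tested. Among the 12 astrocyte markers Aqp4 was higher (1.19 ± 0.34) and Slc6a11 lower. On set A the called probe sets of Aqp4 ran in both directions, from -0.53 to 1.01. The summed signal of the 12 markers ran from 13834 to 18170 at 6 h and from 20025 to 21017 at 0 h. Among the 7 oligodendrocyte lineage markers Bcas1 (-0.69 ± 0.11) and Gpr17 (-0.45 ± 0.13) were lower, with sums of 13294 to 20213 at 6 h and 21018 to 25167 at 0 h. By limma 0 of 6 microglial and 0 of 4 vascular markers were called (0 in each list also at an unadjusted p under 0.05), and Cd53, Laptm5, Ms4a7 and Dcn had means below background at both times. Of 22 markers of excitatory neurons and cortical layers 5 were lower, with Ldb2 (-2.02 ± 0.17), Bcl11a (-1.76 ± 0.23) and Camk2a among them, and 2 higher, Nr4a2 and Pou3f3 (0.97 ± 0.11). Of 14 interneuron markers Dlx6os1 and Gad2 were higher and Maf lower (-1.35 ± 0.27). Among pan-neuronal genes Myt1l, a factor that represses non-neuronal genes, gave 3435, 1674 and 1463 at 6 h and 17719.8, 9293 and 6548 at 0 h. The groups did not overlap, though signals within each group spread widely (log2 -2.25 ± 0.13, adjusted p = 1.24e-06). Nefl, the light neurofilament, rose (1.62 ± 0.12). The part of cell composition in these results was not tested. Leaving out 1 array ended the call of Aqp4 (6 h arrays 1 or 2, 1 h arrays 1 or 2 or 3, 0 h arrays 1 or 2, adjusted p up to 0.244), Gpr17 (6 h arrays 1 or 2 or 3, 1 h arrays 1 or 2 or 3, 0 h arrays 1 or 2 or 3, adjusted p up to 0.238) and Maf (0 h array 2, adjusted p up to 0.0757).

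Several of the steepest fitted changes rested on signals near background. Lin7a, a scaffold that joins Cask at synapses, had 1761, 759 and 1047 at 6 h and -257, 23.6 and 23.6 at 0 h, at least 2.89-fold higher (adjusted p = 0.00126). Cds1, an enzyme of phosphatidylinositol synthesis, gave 1012, 729.6 and 652 at 6 h and -185, 44.3 and 62.3 at 0 h, at least 1.98-fold higher. Zc3h12c, Zfp385b and A830010M20Rik were at least 1.72-fold, 2.79-fold and 2.88-fold higher. For Ptprk, a receptor phosphatase, the same bound was 1.01, and its brighter probe set rose by log2 0.99 ± 0.17. On set A 2 Ptprk probe sets were called higher and 1 lower, the lower one being that of highest mean (-0.81 ± 0.12, limma, adjusted p = 0.000945). Among the falls, C630043F03Rik, Zfp827, Jakmip1, Azin2, Lypd1, Pcnx2 and Fam184b had 6 h means below background and were at least 2.13-, 2.58-, 2.36-, 1.75-, 1.35-, 1.30- and 1.11-fold lower, in that order. Single-array omission ended the call of Zfp827 (0 h array 2, adjusted p up to 0.0543), Jakmip1 (0 h arrays 1 or 3, adjusted p up to 0.0636), Azin2 (6 h array 2, 0 h arrays 1 or 2 or 3, adjusted p up to 0.0819) and Lypd1 (6 h arrays 2 or 3, 0 h arrays 2 or 3, adjusted p up to 0.112). With 1 array left out the test was no longer passed by Pcnx2 (6 h array 2, 0 h arrays 2 or 3, adjusted p up to 0.118) and Fam184b (6 h array 2, 0 h arrays 1 or 3, adjusted p up to 0.0858).

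Above background, further rises were those of the orphan receptor Gpr26, at 9025, 8140.3 and 6435 at 6 h and 654, 1204 and 1090.1 at 0 h (adjusted p = 5.48e-07), and of Paqr8, a progestin receptor family member (log2 2.65 ± 0.66). Gpr26 showed separate groups. Further falls were those of Xpo5, the exporter of microRNA precursors, at 917, 217 and 102 at 6 h and 2111, 2002 and 1632 at 0 h (adjusted p = 0.00384), and of Hivep3, a zinc-finger protein, at 374, 387 and 596 at 6 h and 1955, 2048 and 2039 at 0 h (adjusted p = 0.000116). Both kept their calls with each array left out, and the groups of both stood apart. Nedd4l, a HECT-type ligase of membrane proteins (log2 -2.19 ± 0.29), and Sipa1l1, a regulator of Rap in dendritic spines (-2.18 ± 0.30), kept theirs too. The other 3 tested probe sets of Sipa1l1 ran the other way, from 0.23 to 1.39, and did not pass. Srl, a sarcoplasmic reticulum protein (-2.83 ± 0.69), Klhdc8b (-2.23 ± 0.48) and Zkscan4 (-2.45 ± 0.66) were lower too. Their 6 h signals on array 1 were -94.3, 21.9 and -18, below background. Without the arrays numbered 1 their differences were -1.37, -1.13 and -1.38, and Zkscan4 did not pass (limma, adjusted p = 0.158). The 0 h signal of Paqr8 on array 1 was -169, and without the arrays numbered 1 its difference was 1.23. The call did not hold without single arrays for Paqr8 (6 h arrays 1 or 2, adjusted p up to 0.138), Srl (0 h arrays 1 or 2, adjusted p up to 0.139), Klhdc8b (0 h array 1, adjusted p up to 0.0726) and Zkscan4 (6 h arrays 1 or 3, 1 h array 2, 0 h arrays 1 or 3, adjusted p up to 0.191).

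The 1 h arrays of the same set show where the 6 h values stand in time. At 6 h against 1 h, 339 probe sets were higher (2.01%) and 520 lower (3.08%), 5.09% together, and with the Gapdh ratio as a covariate these counts were 285 and 443. At 1 h against 0 h, 92 were higher (0.545%) and 24 lower (0.142%), 0.687% together. This comparison shares the 0 h arrays with the main one. Of the 45 genes with the largest fitted changes, 27 passed the test of 6 h against 1 h. These 45 were picked by their 6 h minus 0 h change, and this test uses the same 6 h arrays. The choice of genes therefore favoured passing in the same direction. Npas4 averaged 11519 ± 4062 units at 6 h and 32423 ± 8084 at 1 h, and was lower at 6 h than at 1 h (log2 -1.52, adjusted p = 0.0449). Nr4a3 averaged 59007 ± 8531 at 6 h and 35045 ± 5326 at 1 h, and was higher at 6 h (log2 0.70, adjusted p = 0.00163). Homer1 averaged 14837 ± 2202 at 6 h and 1728 ± 207 at 1 h, and its 6 h minus 1 h difference was 3.09 (adjusted p = 6.17e-07) beside a 1 h minus 0 h difference of 0.96 (adjusted p = 0.0089). Rgs2 gave 2.27 and 1.38, and Hdac9 1.94 and 1.48 in the same order, each past the threshold in both. Adcyap1 passed in both too, with a 6 h minus 1 h difference of 2.65 and a 1 h signal at least 1.89-fold above 0 h. Gpr26, Pcdh17 and Igf1 passed at 6 h against 1 h (2.62, 2.23 and 1.84) and not at 1 h against 0 h (0.43, 0.59 and 0.78). For Vgf and Mir22hg the 6 h minus 1 h difference did not pass (0.60, adjusted p = 0.0916; 0.39, adjusted p = 0.461). Trim45 and Lrsam1 were at least 1.81-fold and 3.48-fold lower at 6 h than at 1 h, Xpo5 and Slc43a2 had 6 h minus 1 h differences of -3.26 and -2.15, and the 1 h minus 0 h differences of these 4 genes, in that order, were -0.28, 0.12, 0.13 and -0.36, none past the threshold. Cntn2 and Myt1l passed in both, with -1.91 and -1.19 at 6 h against 1 h and -1.70 and -1.06 at 1 h against 0 h.

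Probe sets of 1 gene did not always move together. Of 2456 genes with 2 or more tested probe sets on set B, 153 had 2 or more called, and 24 of these (15.7%) had calls in opposite directions, 19 with both directions above background. Tcaf1, a regulator of TRP channels, gave 8334, 4308 and 4599 at 6 h and 3417, 2259 and 2908 at 0 h on 1428540_at (log2 1.07 ± 0.12). On 1437639_at it gave 2298, 1404 and 1555 at 6 h and 4275, 2924 and 3695 at 0 h (log2 -0.95 ± 0.13). Neither pair of groups overlapped, and the adjusted p-values were 0.000169 and 0.000701. Gria4 was lower on 1435722_at (log2 -0.70 ± 0.15) and higher on 1440891_at (0.87 ± 0.22), and Neto2 was lower on 1436309_at (-0.57 ± 0.14) and higher on 1454032_at (1.54 ± 0.29), so the count of lower glutamate receptor genes depended on which probe set stood for a gene. Kidins220, a scaffold of neurotrophin receptors, had 4 called probe sets. The log2 differences were -1.72 on 1455762_at, -0.40 on 1433852_at and 0.97 on 1436607_a_at. On 1430449_at it was called higher from a 0 h mean of 179 units, below background. For B230216N24Rik and C630043F03Rik the other tested probe set ran against the call, at -1.08 and 0.55, and did not pass. These examples were chosen after their values were seen. Omission of 1 array took the call from 1435722_at (6 h arrays 1 or 3, 0 h arrays 1 or 3, adjusted p up to 0.0759), 1440891_at (6 h arrays 1 or 2, 0 h arrays 1 or 2, adjusted p up to 0.151), 1436309_at (6 h array 3, 0 h arrays 2 or 3, adjusted p up to 0.132) and 1433852_at (6 h arrays 1 or 2 or 3, 0 h arrays 1 or 3, adjusted p up to 0.165). Calls were lost in fits without 1 array for 1436607_a_at (6 h arrays 1 or 2, 0 h arrays 1 or 2, adjusted p up to 0.1).

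The same was seen between set B and set A. On set A, in a fit of its own, 11.5% of 16969 tested probe sets were higher at 6 h and 12.8% lower, 24.3% together. Of 1175 genes called on set B, 435 had a tested probe set on set A and 229 of these were called there: 92 were higher on both sets, 78 lower on both, 37 lower on set B and higher on set A, 7 higher on set B and lower on set A, and 15 mixed within a set. Under median scaling of set B the opposite pairs split 53 and 4 in the same order, and without the replicate block 22 and 3. Cand1, an exchange factor of cullin ligases, had 878, 500.3 and 501 units at 6 h and 3204, 2677 and 1959 at 0 h on set B (log2 -2.10 ± 0.23). On set A it had 1505, 1277 and 1200.0 at 6 h and 857, 961 and 867 at 0 h (log2 0.56 ± 0.14). The 6 h and 0 h signals did not overlap on either set, and the adjusted p-values were 0.000116 on set B and 0.0144 on set A. Nedd4l fell on set B (log2 -2.19 ± 0.29) and rose on set A (0.83 ± 0.12, adjusted p = 0.000573). Tial1 likewise gave -1.69 ± 0.23 on set B and 1.23 ± 0.23 on set A, and Kif3a, a kinesin motor subunit, -1.24 ± 0.13 and 0.61 ± 0.18. Of the 24 named genes above background, 11 had a tested probe set on set A, of which the one of highest mean is given: 5 were called the same way, 1 (Nedd4l) the other way and 5 did not pass. The set A difference was 2.09 for Homer1, 4.34 for Rgs2, 0.81 for Fosl2 and -0.49 for Xpo5. Hdac9 was at least 2.88-fold higher on set A, where its 0 h mean was at background. Those that did not pass were Nr4a3 (0.25, adjusted p = 0.712), Igf1 (0.84, adjusted p = 0.067), Cntn2 (-0.13, adjusted p = 0.872), Myt1l (-0.68, adjusted p = 0.061) and Hivep3 (-0.20, adjusted p = 0.692), and the set A mean of Nr4a3 was below that set's background level of 74.8 at both times. Another set A probe set of Igf1 was called higher (log2 3.14), so Igf1 is among the 92 genes higher on both sets. The 100 probe sets that are on both sets and were tested on both gave 22 calls on set B, 23 on set A and 15 on both, 0 of them opposite. Whether both sets were hybridised with the same RNA is not given in the sources used here, so their calls may not be independent. Where each probe set lies in its transcript is not given in the sources used here, and the part of transcript position or RNA quality in the opposite calls was not tested.

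**Figure D5:**
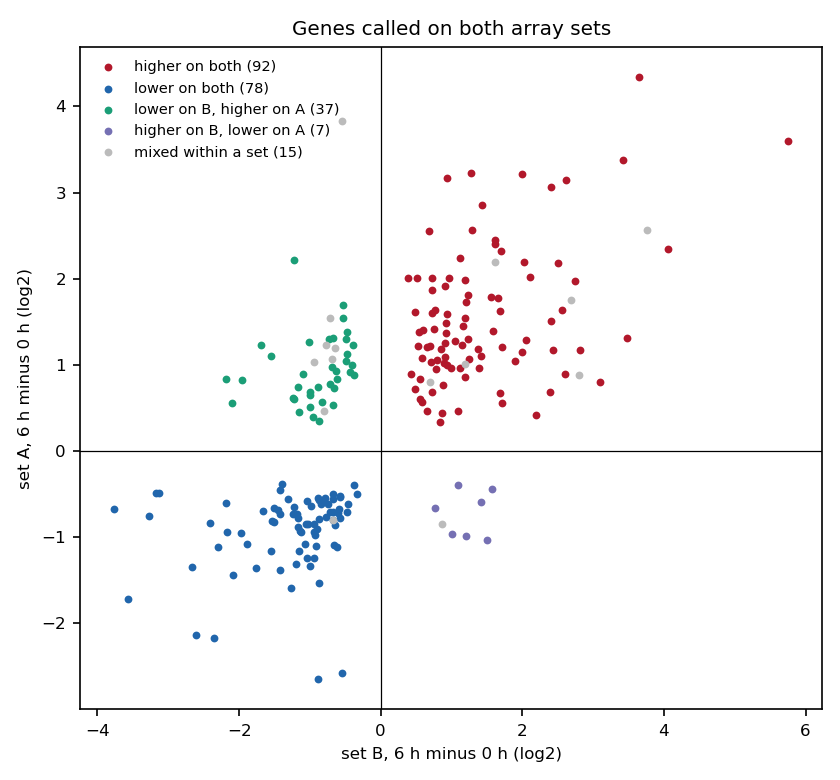
Each point is 1 of the 229 genes called on both sets, with the largest called 6 h minus 0 h log2 difference on set B (x axis) and on set A (y axis). The 92 genes higher on both lie at the upper right and the 78 lower on both at the lower left, while 37 genes lie at the upper left (lower on set B, higher on set A) and 7 at the lower right.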

How the data were processed

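RNA of cultured mouse cortical neurons at 0 h, 1 h and 6 h of KCl was hybridised to 1-colour Affymetrix array sets A and B, 3 arrays per time and set. The deposited values are signal intensities per probe set, already summarised and scaled by the authors. The labels do not describe how arrays numbered 1, which alone hold values below 0, were summarised, and the sources used here do not settle it. Control probe sets, 64 per set, left every test.

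On set B, values below 0 were set to 0, log2(intensity + 16) was taken and arrays were quantile-normalized. The lowest 25% of probe sets by mean level (5628) were left out and 16883 tested. limma 3.58.1 (R 4.3.3) fitted the 9 arrays with time and replicate number, eBayes with an intensity trend and two-sided tests, and p-values were adjusted by Benjamini-Hochberg over all tested probe sets. Residual degrees of freedom were 4, so the number of arrays limits precision. Fold changes are on the log2(intensity + 16) scale, and the added 16 lowers those of dim genes. Where 1 time was at background, a bound took the higher of the background level and the dim signal on each array. There the fitted fold is not a lower limit, since signals below background carry no order. For Ptprk the fitted fold was 13.6 and the bound 1.01. Set A was fitted separately on its deposited scale.

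Deviations from the time means correlated at 0.446 to 0.476 between arrays numbered 1. Between same-numbered arrays of numbers 2 and 3 they correlated at 0.150 to 0.207. Numbers 2 and 3 also correlated with each other, at 0.132 to 0.197, and number 1 with neither (-0.308 to -0.232). These values set number 1 apart and do not show pairing by number within numbers 2 and 3. All set B arrays share 1 chip lot and 1 scan day. p-values measure the spread between these arrays.

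On set B 14661 probe sets have 1 gene symbol, 245 several and 7605 none listed, and 14486 were matched to RefSeq by gene ID. Several probe sets of 1 gene were represented by the one of highest mean. Members and gene lists were chosen with earlier results of these data known. Named genes are the 12 largest rises and falls among called genes moving one way in all 3 numbered pairs, the same among genes above background, and up to 4 called and 2 not called members of each list. 1 list is not reported here. Other examples were chosen after their values were seen. Alternatives were other blocks, scalings, pseudocounts (4 and 64), filters, variance models, a Gapdh ratio covariate and omission of arrays. The fit was also run on simulated data of the 6 h and 0 h comparison (16883 probe sets, 200 changed). It recovered 12% of 100 changes of log2 size 1 and 20% of 100 of size 2, with 5 false calls. Most of the 200 were thus missed in that data. The measured arrays had 1468 probe sets called, and the share of changes missed there was not tested.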

Additional observations from a re-analysis of the deposited data

Results flagged for a closer look

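The murine transferrin receptor control probe set for the 3′ end, a control left out of all fits, had a mean of 1130.1 units at 6 h and 434 at 0 h, above the background level of 369. Its signals were 1481, 1048 and 861 at 6 h, and 594, 236 and 474 at 0 h. The 1 h mean was 1351. An exact permutation test of 6 h against 0 h gave p = 0.1, the smallest that 3 arrays against 3 allow.

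Of the 45 named genes, 27 differed between 6 h and 1 h (limma, adjusted p under 0.05), so that the change from 0 h was not the same at both times. Higher at 6 h than at 1 h, in log2 units of 6 h minus 1 h, were Homer1 (3.09), Adcyap1 (2.65), Gpr26 (2.62), Rgs2 (2.27), Pcdh17 (2.23), Hdac9 (1.94), Igf1 (1.84), B230216N24Rik (1.72), Fosl2 (1.34) and Nr4a3 (0.70). Chst8 was at least 1.93-fold and Lin7a at least 2.89-fold higher, with 1 h means at background. The values of these 12 ran the same way as their 6 h minus 0 h differences. Choosing the genes by that difference on the same 6 h arrays favours such a result. Lower at 6 h than at 1 h were Xpo5 (-3.26), Slc43a2 (-2.15), Klhdc8b (-2.03), Cntn2 (-1.91), Nedd4l (-1.80), Sipa1l1 (-1.52), Hivep3 (-1.49), Arrdc3 (-1.38) and Myt1l (-1.19). Ccbe1, Lrsam1, Galnt9, Trim45 and C630043F03Rik, at background at 6 h, were at least 3.74-, 3.48-, 2.20-, 1.81- and 1.27-fold lower, in that order. Npas4 alone among the 27 was higher at 6 h than at 0 h and lower at 6 h than at 1 h (-1.52).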

How the results depend on the processing

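The counts of probe sets called at 6 h against 0 h, 635 higher and 833 lower, became 376 and 470 without the replicate block, 332 and 1098 under median scaling, 30 and 10 without the intensity trend, and 11 and 0 by limma with the Gapdh ratio as a covariate (624 and 560 at an unadjusted p under 0.05). The share of higher calls among all calls was 43.3%, against 23.2% under median scaling. Without any of the arrays numbered 1 the counts were 357 and 514. Leaving out single arrays gave 394 to 605 higher and 474 to 821 lower, with counts moved by over 1.5 times without the 6 h array 1 or 2 or the 0 h array 1 for higher calls, and without any of the 3 arrays at 0 h for lower calls. At 6 h against 1 h, the counts of 339 and 520 became 164 and 233 without the replicate block, 138 higher under median scaling, 0 and 0 by limma without the intensity trend (968 and 1203 at an unadjusted p under 0.05), and 162 and 267 without the arrays numbered 1. Single arrays left out gave 176 to 312 higher and 239 to 470 lower, with counts moved by over 1.5 times without any of the 3 arrays at 1 h or the 6 h array 2 or 3 for higher calls, and without the 1 h array 1 or 3 or the 6 h array 2 for lower calls. Other pseudocounts, filters, the deposited scale and the summary method as a block kept these counts within 1.5 times. A fit of the 6 h and 0 h arrays alone gave 561 higher and 695 lower and no value for 6 h against 1 h. None of the 45 named genes turned its direction under any of the 21 alternatives, whereas the balance of all calls turned to more higher than lower ones without the trend and with the covariate. Of the 45, 39 lost their call with the Gapdh covariate (21 of them with a difference at least as large as before and 18 with a smaller one, 0.239 to 1.80 times the value without it, under a median standard error of the named genes 2.88 times as large), 26 without the trend, 7 without the replicate block, and 4 without the arrays numbered 1. The split of genes called in opposite directions on both array sets, counted under each setting, was added after the data were seen. For these genes, 37 were lower on set B and higher on set A, against 40 on the deposited scale, 53 under median scaling and 22 without the replicate block. The count was 0 without the trend or with the covariate, where few genes were called on both sets at all. Without the trend 8 were higher on both, 1 lower on both and 1 mixed, and with the covariate 5 were higher on both. So few genes cannot show whether opposite pairs remained. The set A fit was the same under these settings. The causes of these shifts were not tested. Without the arrays numbered 1, the 5′ over 3′ difference between 6 h and 0 h was 0.182 for Actb and 0.383 for Gapdh.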
